A study of Mus musculus with 8 samples.

Results

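The authors listed 2021 regions that lay in lamina-associated domains (LADs) of 3T3-L1 preadipocytes and outside LADs of adipocytes, here called released regions. Of these, 457 were back in LADs when Tmem120a and Tmem120b were knocked down together and not when Tmem120a was knocked down alone. These returned regions were chosen by their coverage in the deposited LAD lists. A region was taken when less than 50% of its length lay in LADs of the Tmem120a knockdown list and at least 50% lay in LADs of the double knockdown list. They made up 22.6% of the released regions and 24.3 of 103 Mb, or 23.5% of the released length. Another 487 regions were in LADs of both knockdown lists, 234 in LADs of the Tmem120a knockdown list alone, and 843 in LADs of neither. Over all released regions, 35.7% met the limit of 50% of their length in the Tmem120a knockdown list and 46.7% met it in the double knockdown list. The authors' list of 103 Mb does not hold all sequence lost from LADs. Preadipocyte LADs covered 1193 Mb, of which 1071 Mb was also in adipocyte LADs.

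3T3-L1 is a mouse fibroblast line that turns into fat-storing adipocytes under hormonal induction. LaminB1-DamID was performed in 4 conditions: untreated preadipocytes at day 0, and adipocytes at day 9 of differentiation carrying a control non-target shRNA, a Tmem120a shRNA, or shRNAs against both Tmem120a and Tmem120b. Each condition had 1 library from cells expressing LaminB1-Dam and 1 from cells expressing Dam alone, with no replicate, so differences between conditions were described and not tested. The preadipocytes carried no shRNA, so that differentiation and the shRNA vector cannot be told apart in the release itself, and in the double knockdown the effect of the shRNAs cannot be told apart from a difference between library pairs. The lists held positions without scores, read counts or expression, so depth was unknown and the adipocyte identity of the cells could not be checked against markers here.

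LADs are large stretches of chromatin that contact the nuclear lamina, the protein mesh under the inner nuclear membrane. They are in general gene-poor, AT-rich and transcriptionally quiet, and genes may move to or from the lamina as cells differentiate. In DamID a bacterial adenine methylase fused to LaminB1 marks GATC sites near the lamina, and the enzyme DpnI cuts only the marked sites. Tmem120a and Tmem120b are related transmembrane proteins of the nuclear envelope and endoplasmic reticulum that are expressed in fat.

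The edges of the returned regions sat on the sites read by the assay. With starts counted from 1, a GATC covered the border in 911 of 914 edges (99.7%), with the last base of the GATC on the first base of the region or on the base after its end. The sequences at both edges of 4 of the longest returned regions are shown because the position of each LAD border is known only to such a site. They come from mm9 on the plus strand, with the GATC at the border in capitals.
chr11:108692259-108692318, start of the region: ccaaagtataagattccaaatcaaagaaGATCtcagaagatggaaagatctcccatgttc
chr11:109165036-109165095, end of the region: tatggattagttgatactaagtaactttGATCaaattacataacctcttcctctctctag
chr1:189753724-189753783, start of the region: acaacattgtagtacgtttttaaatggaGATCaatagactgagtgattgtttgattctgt
chr1:190035799-190035858, end of the region: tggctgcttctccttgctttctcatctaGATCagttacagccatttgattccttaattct
chr7:140429655-140429714, start of the region: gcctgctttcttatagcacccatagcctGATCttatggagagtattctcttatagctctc
chr7:140689375-140689434, end of the region: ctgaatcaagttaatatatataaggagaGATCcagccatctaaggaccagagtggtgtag
chr13:60610032-60610091, start of the region: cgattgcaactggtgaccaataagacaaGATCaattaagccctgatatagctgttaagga
chr13:60818597-60818656, end of the region: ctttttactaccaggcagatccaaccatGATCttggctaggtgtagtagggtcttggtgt

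The promoters of 5 genes are shown because their whole bodies made the full excursion: they were 100% in LADs of preadipocytes, 0% in adipocytes, 0% after Tmem120a knockdown and 100% in the double knockdown. They were picked after the values were seen, to show promoters with many and with few CG dinucleotides. Each runs from 250 bases before to 50 after the annotated start in mm9, written 5′ to 3′ on the strand of the gene, with every CG in capitals. Oxtr encodes the oxytocin receptor, Tal1 a transcription factor of blood stem cells, Myl1 a light chain of fast muscle myosin, Fga the fibrinogen alpha chain of blood clots and Gzmb the cytotoxic protease granzyme B.
Oxtr, chr6:112440835-112441134, minus strand: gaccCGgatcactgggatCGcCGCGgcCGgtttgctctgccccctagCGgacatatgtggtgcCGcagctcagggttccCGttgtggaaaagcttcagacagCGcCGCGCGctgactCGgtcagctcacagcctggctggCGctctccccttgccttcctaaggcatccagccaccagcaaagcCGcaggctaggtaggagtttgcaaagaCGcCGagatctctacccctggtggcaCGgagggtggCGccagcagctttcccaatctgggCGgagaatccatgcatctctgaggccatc
Tal1, chr4:114728781-114729080, plus strand: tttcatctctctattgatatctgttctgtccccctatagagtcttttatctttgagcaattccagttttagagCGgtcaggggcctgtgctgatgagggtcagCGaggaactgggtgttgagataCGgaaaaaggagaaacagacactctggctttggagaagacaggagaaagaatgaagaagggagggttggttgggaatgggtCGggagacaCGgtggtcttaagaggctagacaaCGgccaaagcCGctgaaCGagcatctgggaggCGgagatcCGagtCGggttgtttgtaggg
Myl1, chr1:66991929-66992228, minus strand: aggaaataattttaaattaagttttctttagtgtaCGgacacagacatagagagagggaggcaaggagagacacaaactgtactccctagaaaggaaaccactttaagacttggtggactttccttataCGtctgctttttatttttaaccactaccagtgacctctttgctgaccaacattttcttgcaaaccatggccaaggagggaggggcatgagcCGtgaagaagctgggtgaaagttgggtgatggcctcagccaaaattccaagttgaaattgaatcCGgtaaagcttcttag
Fga, chr3:82829825-82830124, plus strand: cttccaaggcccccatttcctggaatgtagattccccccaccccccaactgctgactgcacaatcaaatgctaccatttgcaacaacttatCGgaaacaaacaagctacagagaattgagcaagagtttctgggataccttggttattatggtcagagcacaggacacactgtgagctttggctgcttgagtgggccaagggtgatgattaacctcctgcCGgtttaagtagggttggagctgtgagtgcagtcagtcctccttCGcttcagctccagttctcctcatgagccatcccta
Gzmb, chr14:56881048-56881347, minus strand: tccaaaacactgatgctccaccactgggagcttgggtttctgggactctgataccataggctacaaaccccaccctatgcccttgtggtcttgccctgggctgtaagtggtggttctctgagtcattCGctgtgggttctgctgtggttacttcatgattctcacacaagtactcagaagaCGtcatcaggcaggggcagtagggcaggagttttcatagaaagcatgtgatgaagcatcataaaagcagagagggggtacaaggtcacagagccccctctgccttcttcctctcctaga

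The Oxtr promoter held 20 CG and the Tal1 promoter 11, whereas Myl1 held 4, Fga 3 and Gzmb 2. By a rule of at least 50% GC and a CpG observed to expected ratio of at least 0.6 over these 300 bases, those of Oxtr and Tal1 were CpG-rich and the other three were not. The CG count is a property of the sequence and was not used in choosing the regions. Among the 185 protein-coding genes whose start lay inside a returned region, 55 (29.7%, Wilson 95% interval 23.6 to 36.7%) had a CpG-rich promoter. The share was 42.0% over all 22367 protein-coding genes, 9.64% for genes starting in LADs of both preadipocytes and adipocytes, and 51.5% for genes starting in LADs of neither. Returned promoters were therefore placed between those of stable LADs and those outside LADs. In the other released classes the share was 32.7% for regions in LADs of both knockdowns, 39.0% for neither and 50.6% for the Tmem120a knockdown alone. All intervals over regions or genes cover counting only, and neighbouring regions are not independent.

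One microRNA gene with a mature sequence in the RefSeq tables (GRCm38.p6) lay inside a returned region, of 6 annotated microRNA genes that met one. Mir759, at chr14:80138238-80138335 on the plus strand in mm9, lay in a LAD in preadipocytes and again in the double knockdown, while neither adipocytes nor the Tmem120a knockdown had a LAD over it. Its mature sequence is shown with the seed, bases 2 to 8, in capitals, since the seed is the stretch through which a microRNA pairs with its targets.
mmu-miR-759: gCAGAGUGcaaacaauuuugac

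The values that chose the regions were far apart for most of them. After Tmem120a knockdown the coverage of the 457 regions had a median of 0%, an upper quartile of 25.5% and a highest value of 49.9%, and 262 regions (57.3%) had no LAD at all. In the double knockdown the lowest value was 50.1%, the lower quartile 68.8% and the median 89.5%, and 187 regions (40.9%) lay wholly in LADs. In 114 regions (24.9%) the contrast was complete, from 0% to 100%, and in 382 (83.6%) the lists differed by at least 50 percentage points. A less clear group was also present. In all, 195 regions (42.7%) were partly in LADs of the Tmem120a knockdown, 116 of them over at least 25% of their length, and 137 reached only 50 to under 75% in the double knockdown.

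**Figure D1:**
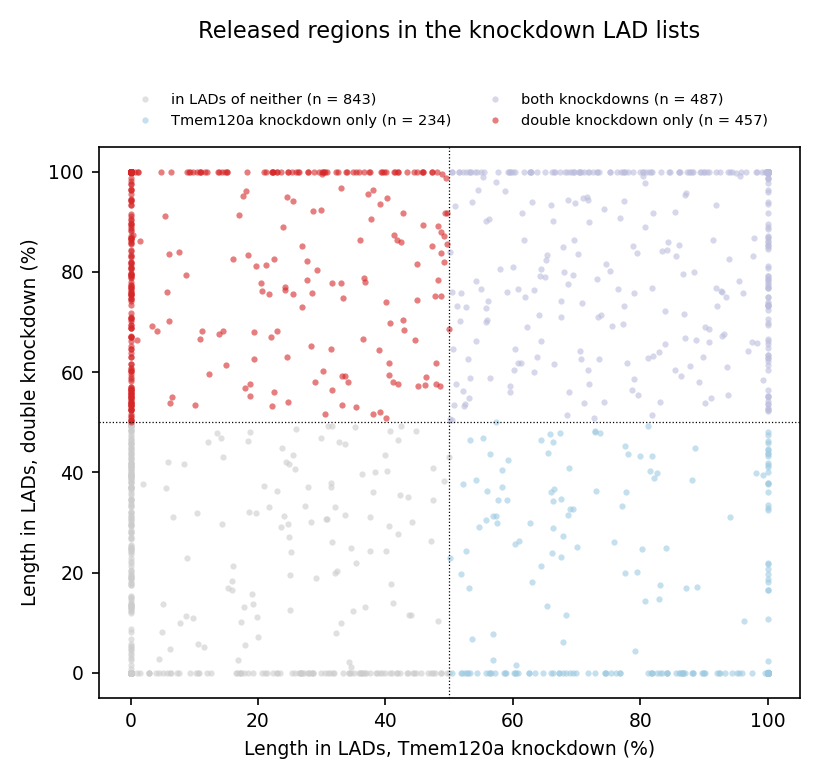
Share of the length of each of the 2021 released regions in LADs of the Tmem120a knockdown (horizontal, %) and of the double knockdown (vertical, %), with 1 point per region, the 457 returned regions in red and the limits of 50% dotted. The returned regions fill the upper left quadrant by construction, with 262 of them on the left axis and 187 along the top.

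At the limits the classes ran into each other. The 3 returned regions closest to the Tmem120a knockdown limit were at 49.9% on chromosome 6 (95034039 to 95159799), 49.7% on chromosome 15 (83786471 to 83911271) and 49.6% on chromosome 12 (114469930 to 114525839). The nearest regions on the other side were at 50.1% on chromosome 2 (146662925 to 146691144), 50.1% on chromosome 14 (72717178 to 72744084) and 50.4% on chromosome 10 (20777400 to 20834005). At the double knockdown limit the closest returned regions were at 50.1% on chromosome 1 (55443539 to 55544480), 50.4% on chromosome 17 (12659475 to 12799958) and 50.5% on chromosome 8 (111134602 to 111204854), all at 0% after Tmem120a knockdown. Just below it were regions at 49.9% on chromosome 5 (53395958 to 53412324), 49.7% on chromosome 6 (99640129 to 99671387) and 49.6% on chromosome 4 (82374019 to 82444103), also at 0%.

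Returned regions ranged from 8.25 to 473 kb, with a median of 36.8 kb (quartiles 20.9 and 66.4 kb) against 37.1 kb for all released regions. The preadipocyte LAD from which they were released had a median length of 116 kb, compared with 186 kb for regions back in both knockdowns, 99.0 kb for the Tmem120a knockdown alone and 66.5 kb for neither. Thus the regions of the double knockdown came from LADs of a size between those of the both and neither classes. They were spread over all autosomes and the X chromosome. Their share of the released regions was lowest on chromosome 11, at 16 of 103 (15.5%, interval 9.79 to 23.8%), and highest on chromosome 8, at 34 of 105 (32.4%, interval 24.2 to 41.8%), and 19 of 95 X-linked regions (interval 13.2 to 29.1%) were among them.

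In sequence composition the returned regions lay between stable LADs and the rest of the genome. Over all their bases the GC content was 42.9%, compared with 39.3% in LADs common to preadipocytes and adipocytes and 44.0% in sequence that was in LADs of neither. Per region the median was 42.7%, against 42.4% for regions back in both knockdowns, 42.4% for the Tmem120a knockdown alone and 41.5% for neither, and the quartiles of 40.6 and 44.6% overlapped those of every other class. GATC density, which sets the resolution of the assay, was 2.51 sites per kb at the median, with 97 sites in a median region, and was 2.51 per kb over all released regions as well. Gene starts were found at 7.63 per Mb in the returned regions, 4.04 per Mb in common LADs and 13.5 per Mb outside LADs. Regions of the other classes held 6.75 to 8.10 starts per Mb, a range that takes in the returned regions.

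The 6 longest returned regions were mostly met by several double knockdown LADs. The longest, on chromosome 11, held Axin2, a negative regulator of Wnt signalling, and Rgs9, a regulator of G protein signals in photoreceptors and striatum. Axin2 was 100% in LADs of preadipocytes, 0% in adipocytes, 0% after Tmem120a knockdown and 85.7% in the double knockdown. Rgs9, in the same region, reached only 30.1% in the double knockdown after 100% in preadipocytes, 0% in adipocytes and 9.36% after Tmem120a knockdown. The region was covered by 7 separate double knockdown LADs, so the 2 genes had unlike outcomes within 1 region. A region of 434 kb on chromosome 13 (101824193 to 102258082) without any protein-coding gene was 10.9% in LADs after Tmem120a knockdown and 66.7% in LADs, 5 of them, in the double knockdown.

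A region of 282 kb on chromosome 1 (189753755 to 190035829) was a whole preadipocyte LAD that was lost in adipocytes. It lay inside Esrrg, which encodes the orphan nuclear receptor estrogen-related receptor gamma, a driver of oxidative metabolism genes. The Tmem120a knockdown covered 30.2% of it with 2 LADs, and in the double knockdown 1 LAD of 408 kb covered all of it and ran past both ends. On chromosome 18 (3954224 to 4217927) a region of 264 kb with Lyzl1, a lysozyme-like gene, went from 44.7% after Tmem120a knockdown to 66.4% in the double knockdown. A gene-free region of 259.7 kb on chromosome 7 (140429686 to 140689405) was at 31.7% and 77.8%. On chromosome 13 (60610063 to 60818627) a region of 209 kb was at 0% and 75.9%, and contained most of Dapk1, a kinase of cell death and autophagy. The longest double knockdown LAD that met a returned region was 1593 kb long on chromosome 13 (65417326 to 67010493), and the returned region there was only 12.5 kb.

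**Figure D2:**
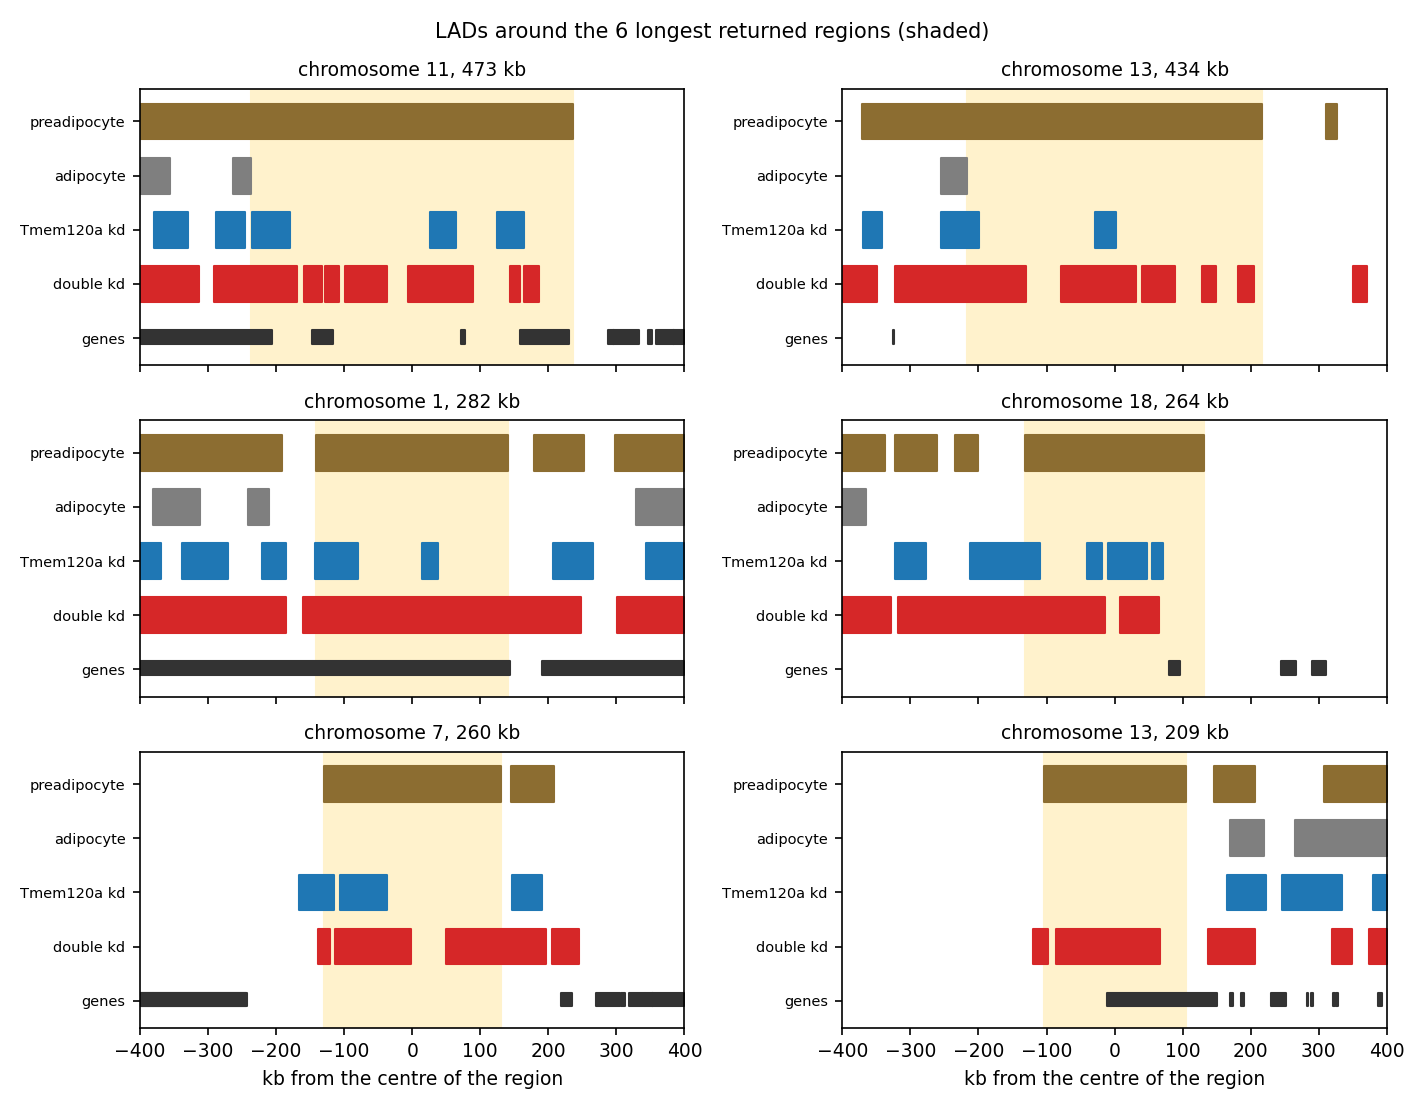
LADs of each list (bars, 1 row per list) and protein-coding genes (lowest row) within 400 kb of the centre of the 6 longest returned regions, which are shaded; kd is knockdown. Only the chromosome 1 region of 282 kb was covered by a single double knockdown LAD, while the chromosome 11 region of 473 kb was met by 7.

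Of the 457 regions, 210 (46.0%) abutted a LAD common to preadipocytes and adipocytes at 1 edge, 46 (10.1%) did so at both edges and 201 (44.0%) at neither, against 40.2%, 12.7% and 47.1% of all released regions. Contact with a common LAD was seen in 256 of the 457 returned regions (interval 51.4 to 60.5%), near the 52.9% of all released regions (50.8 to 55.1%). It was seen in 72.9% of regions back in both knockdowns (68.8 to 76.7%), 58.5% of those back after Tmem120a knockdown alone (52.1 to 64.7%) and 38.2% of those back in neither (35.0 to 41.5%). The classes come from the same lists, and the differences between them were not tested.

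Fusion with adipocyte LADs went with this placement, which partly follows from the regions abutting those LADs. The double knockdown LAD on a returned region ran on into an adipocyte LAD in 236 regions (51.6%, interval 47.1 to 56.2%), compared with 71.3% (67.1 to 75.1%) for regions back in both knockdowns. This was so for 174 of 210 regions with 1 common edge (82.9%), 45 of 46 with both edges and 17 of 201 with neither (8.46%). The joined share of 51.6% depended on the setting: it was 78.9% with knockdown LADs of at least 100 kb and 39.6% for regions of at least 30 kb. The LADs that were joined to an adipocyte LAD had a median length of 181 kb, and those that were not had one of 59.2 kb. Of the 201 regions free of a common LAD, 184 returned in a LAD that did not reach an adipocyte LAD. In 390 regions (85.3%) a single double knockdown LAD met the region.

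Along the 210 regions with 1 common edge, the double knockdown covered the inner end, on the side of the persisting LAD, more often than the outer end. In the double knockdown 90.0% of them were in a LAD at the inner end, 94.8% near the middle and 59.5% at the outer end. The high share near the middle follows from the limit of 50% coverage, and regions back in both knockdowns also fell, from 92.1% at the inner end to 66.2% at the outer end. Just beyond the outer end, at 2.5 kb, 51.0% were still in a LAD, and at 12.5 kb 35.7% were. At 62.5 kb the share was 23.8%, near the 24.8% of preadipocytes. After Tmem120a knockdown the same positions gave 36.2% at the inner end and 7.14% at the outer end, so the partial coverage in that list was mostly at the side of the common LAD. This was not particular to the returned regions. Regions back in neither fell from 23.2% to 5.15% in that list. Those back after Tmem120a knockdown alone fell from 38.8% to 10.7% in the double knockdown. Inside the common LAD, at 2.5 kb from the region, 86.7% of the returned regions were in a LAD in the double knockdown. Only 46.7% of them were after Tmem120a knockdown. LADs after Tmem120a knockdown thus stopped short of the adipocyte border at many of these sites. Selecting regions with low Tmem120a knockdown coverage favours this: among the 103 regions with 1 common edge that were back after Tmem120a knockdown alone, the same position gave 85.4% in that list and 46.6% in the double knockdown.

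**Figure D3:**
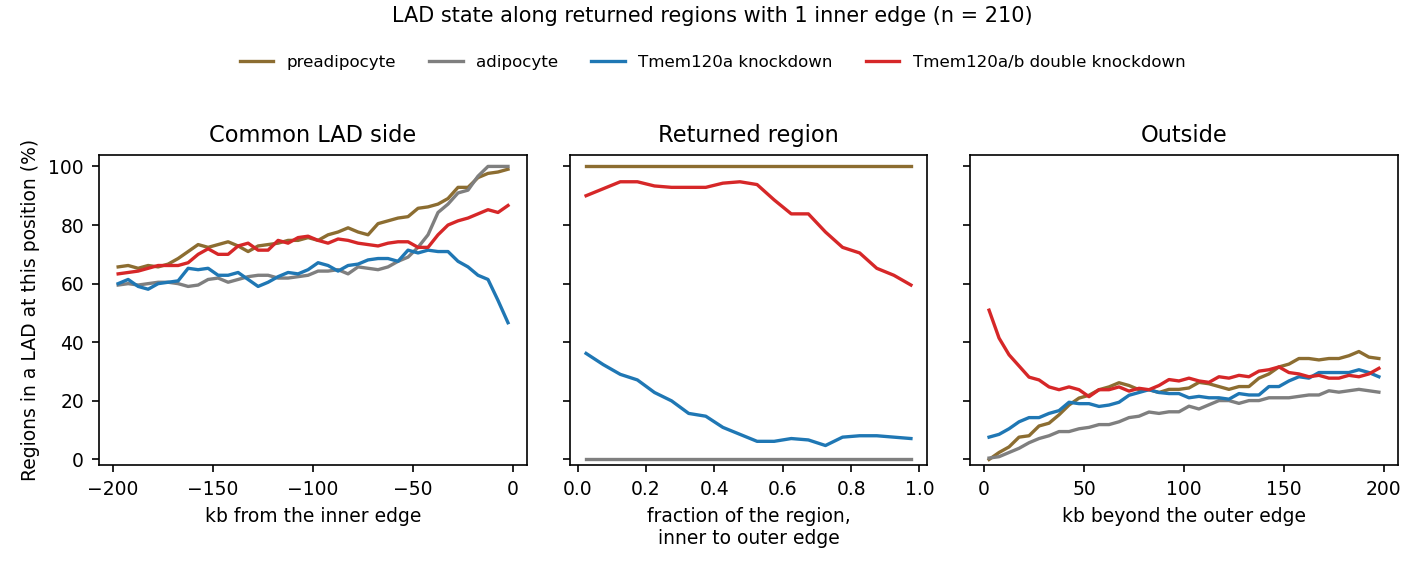
Share of the 210 returned regions with 1 edge on a common LAD that were in a LAD of each list (vertical, %), at distances in kb on the common LAD side, at fractions of the region from the inner to the outer edge, and at distances in kb outside. The preadipocyte line at 100% and the adipocyte line at 0% inside the region are fixed by the choice of regions, which also sets the high double knockdown share near the middle, and the double knockdown line falls from 94.8% near the middle to 59.5% at the outer edge.

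The stretches next to the returned regions were not part of the rule. In the 100 kb of common LAD beside an inner edge, 72.9% of the length was in LADs of the Tmem120a knockdown and 86.1% in those of the double knockdown. The same order was found beside all released regions (74.3% and 79.9%), those back in both knockdowns (83.3% and 90.4%) and those back in neither (59.7% and 63.5%), and the reverse beside those back after Tmem120a knockdown alone (79.5% and 71.0%). Over all common LADs in the genome the values were 92.2% after Tmem120a knockdown and 89.9% in the double knockdown. On the outside, in the 100 kb of sequence that was in LADs of neither preadipocytes nor adipocytes, the Tmem120a knockdown list held 11.1% and the double knockdown list 27.0%, against 11.6% and 18.02% outside all released regions, 6.00% and 9.97% outside those back in neither knockdown, and 5.17% and 7.02% over all such sequence in the genome. These shares count any LAD within 100 kb, not only the LAD on the region. The outside values were 23.3% and 31.2% for regions back in both knockdowns and 18.5% and 15.3% for those back after Tmem120a knockdown alone. These flanks adjoin regions chosen from the same lists and are not an independent measure.

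The outer borders of returned regions, which were the LAD borders of preadipocytes, were met again by the double knockdown LADs at moderate precision. Of 612 such borders, 249 (40.7%, interval 36.9 to 44.6%) had a double knockdown border within 10 kb and 34 (5.56%, interval 4.003 to 7.66%) had a Tmem120a knockdown border. The double knockdown share was 22.9% within 5 kb and 70.3% within 25 kb. Over all released regions 18.4% of outer borders had a double knockdown border within 10 kb and 15.3% had a Tmem120a knockdown border, and for regions back in neither the shares were 4.26% and 3.04%. The median double knockdown border lay 2.60 kb outside the preadipocyte border, with quartiles from -7.86 to 19.9 kb. It was more than 10 kb further out at 224 borders and more than 10 kb short at 139. Only 4 borders were identical to the base. Regions back after Tmem120a knockdown alone gave 45.5% with a Tmem120a knockdown border within 10 kb, and regions back in both gave 34.8% for the double knockdown and 42.1% for the Tmem120a knockdown. The choice of regions by coverage in these lists favours this, since a list that covers most of a region places its border nearer the outer edge.

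Of 302 inner edges, 133 (44.0%, interval 38.6 to 49.7%) had a Tmem120a knockdown border within 10 kb and 29 (9.603%, interval 6.77 to 13.5%) had a double knockdown border. The choice of regions by low coverage in the first list and high coverage in the second favours this order. Regions back after Tmem120a knockdown alone gave the mirror, with 40.4% for the double knockdown and 13 of 171 edges for the Tmem120a knockdown, and regions back in neither gave 32.8% for Tmem120a knockdown borders and, for the double knockdown, 30.4%. For the 262 regions with no LAD after Tmem120a knockdown, the nearest LAD of that list was a median of 32.5 kb away. It was within 10 kb for 68 of them (26.0%) and more than 100 kb away for 57 (21.8%).

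**Figure D4:**
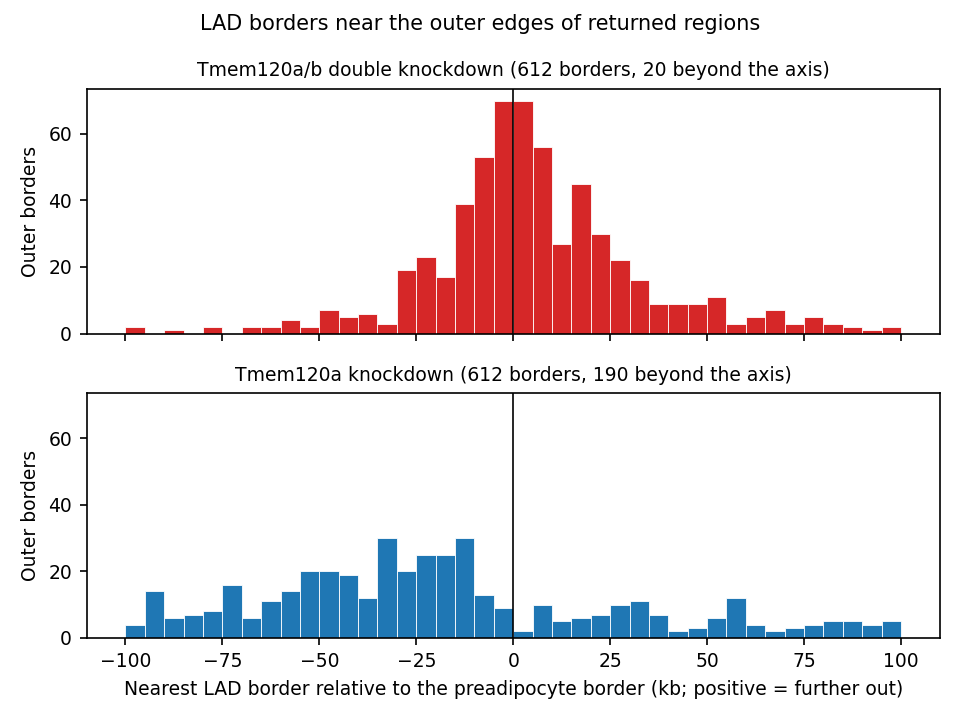
Number of outer borders of returned regions (vertical, bins of 5 kb) by the distance in kb from the preadipocyte border to the nearest border of the double knockdown (above) and Tmem120a knockdown (below) lists, with positive values further out. Of the 612 borders, 249 lie within 10 kb in the double knockdown and 34 after Tmem120a knockdown.

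The next released region on each side of every returned region was read, so a region can count more than once. Of 910 such neighbour positions, 234 (25.7%) held a region returned in the double knockdown only. That class made up 22.6% of all released regions, and the difference was not tested. Of the 137 positions within the same preadipocyte LAD, 40 (29.2%) held a region of that class. Another 50 (36.5%) held one back in both knockdowns, a class that made up 24.1% of all released regions. In genome order 249 returned regions stood alone between released regions of other classes, and there were 70 runs of 2, 17 of 3, 3 of 4 and 1 of 5. The run of 5 lay on chromosome 8 between 84115719 and 86053533 and held parts of Inpp4b, a phosphoinositide phosphatase, and Tbc1d9. Coverage of the 5 regions after Tmem120a knockdown ranged from 0 to 42.7%. With both genes knocked down it was 53.2 to 92.4%.

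In all, 341 of 22367 protein-coding genes (1.52%) met a returned region, and 185 (0.827%) had their start in one. Of the 341 genes, 119 lay wholly in returned regions, while 178 had less than 50% of their body there. A gene that meets a region need not be in the part that returned: 139 gene starts were in LADs of preadipocytes and the double knockdown alone, and 75 genes were wholly in LADs in these lists and not at all in the other lists. There were no protein-coding genes in 196 returned regions (42.9%), 1 gene in 197 and at least 2 in 64, and 89 regions (19.5%) lay inside a gene body.

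The genes with the most sequence in returned regions were mostly long genes that were partly in LADs. Esrrg was 91.3% in LADs of preadipocytes, 26.3% in adipocytes, 46.8% after Tmem120a knockdown and 95.8% in the double knockdown. Prlr, the prolactin receptor, went from 100% in preadipocytes to 0.0911% in adipocytes, 46.2% after Tmem120a knockdown and 83.6% in the double knockdown. Cacna1d, the pore subunit of an L-type calcium channel, was at 55.2%, 5.31%, 27.5% and 54.4% in the same order. For both receptors and the channel the double knockdown value was nearer the preadipocyte value than the Tmem120a knockdown value was. These genes were named for their sequence in returned regions, and the rule that chose those regions favours this order.

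The other long genes differed in how much of their body was back in LADs. Dtd1, a proofreading enzyme that removes D-amino acids from tRNA, was 97.0% in LADs of preadipocytes, 0% both in adipocytes and after Tmem120a knockdown, and 50.7% in the double knockdown. Dapk1 was at 74.0%, 0%, 0% and 55.6% in the order of preadipocytes, adipocytes, Tmem120a knockdown and double knockdown. F8, coagulation factor VIII, was at 83.6%, 0%, 31.6% and 59.6%, and Nckap5 at 34.0%, 4.89%, 5.24% and 32.1%. Dnajc6, the neuronal auxilin that uncoats clathrin vesicles, was at 87.3%, 0%, 56.6% and 100%, and Efcab6 at 76.0%, 0%, 43.3% and 86.7%. Cdh13, an adhesion protein that binds adiponectin, was above its preadipocyte share of 13.6%, at 52.7% in the double knockdown, with 2.74% in adipocytes and 20.7% after Tmem120a knockdown. Wdpcp, a ciliogenesis gene, was at 85.9%, 11.7%, 8.18% and only 25.2%.

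Of 41 lipid storage and adipokine genes none met a returned region, and of 33 adipogenic regulators 1 did (3.03%), against 1.52% of all protein-coding genes. Counts this low are near what the genome-wide share gives. That 1 was Bmp7, a growth factor for brown fat, which was 100% in LADs of preadipocytes, 57.1% in adipocytes, 79.9% after Tmem120a knockdown and 95.9% in the double knockdown. Only 2 genes of each of these lists met a preadipocyte LAD in the first place, so that few could be released. Of the 17 genes listed from the text of the study, 16 were annotated. Of these, Sema3c and Ak4 met a returned region, over 74.8 kb and 2.94 kb of their bodies. That list was not complete: Trim55 and Nos1ap are also named there and met one, over 45.9 kb and 20.2 kb. The study places TRIM55 among muscle genes that move to the nuclear envelope during mouse adipogenesis, and the lists used here gave the opposite direction. The measurement of this locus that its text describes is by imaging in human cells, where it moved to the envelope in control adipogenesis. That is a different measure and species from the unreplicated mouse lists. Trim55, a ubiquitin ligase of the muscle sarcomere, was 97.4% in LADs of preadipocytes, 0% in adipocytes, 0.121% after Tmem120a knockdown and 100% in the double knockdown. Nos1ap, an adaptor of neuronal nitric oxide synthase, was at 42.8%, 31.01%, 58.9% and 75.8% in the same order. Sema3c, a secreted guidance protein with its start outside LADs in all lists, was at 48.0%, 0%, 0% and 31.4%, and Ak4, a mitochondrial adenylate kinase, at 17.3%, 0%, 0% and 42.6%.

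The TGF-beta and BMP family had 5 of 57 members (8.77%) meeting returned regions, beside 1.52% of all genes and 7 of its members meeting any released region. Acvr1c, the type I receptor ALK7 of adipocytes and neurons, was 59.3% in LADs of preadipocytes, 36.1% in adipocytes, 0% after Tmem120a knockdown and 100% in the double knockdown. Its start was in LADs of preadipocytes and the double knockdown alone. Acvr1, another type I receptor, lay near it and was at 7.38%, 0%, 0% and 8.004%. Among the ligands, Bmp3 was at 52.4%, 6.94%, 5.15% and 39.6%, and Bmp5 at 19.6%, 0%, 0% and 25.9%. The family was thus touched mostly in part, and Acvr1c alone of the 5 was whole in double knockdown LADs.

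Among genes of axon guidance, 3 of 31 semaphorins, plexins and neuropilins met a returned region and none of 23 Eph receptors and ephrins or 19 Slit, Robo and netrin family genes did, beside 1.52% of all protein-coding genes. Counts of 0 in families this small are near that share. Plxna4, a semaphorin coreceptor, was 34.1% in LADs of preadipocytes, 7.95% in adipocytes, 40.9% after Tmem120a knockdown and 63.6% in the double knockdown. Sema6d, a transmembrane semaphorin, was at 11.6%, 0%, 0% and 13.6%. Of 47 Wnt ligands, receptors and antagonists only Wnt3, a ligand, met one. It was at 22.1% in preadipocytes, 0% both in adipocytes and after Tmem120a knockdown, and 23.5% in the double knockdown. Axin2, which was not on that list, lay in the longest returned region. No fibroblast growth factor or receptor of 27, collagen of 43, Adamts or Mmp protease of 47, serpin of 60 or Hox and homeobox cluster gene of 40 met one.

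The muscle list held 39 names, matching 41 annotated genes, of which 2 met a returned region (4.88%), beside 1.52% of all protein-coding genes. The list left out Myl1 and Trim55, muscle genes that met one as well and are described elsewhere by their values. Mybpc1, the slow muscle myosin binding protein C, went from 100% in LADs of preadipocytes to 0% in adipocytes, 44.5% after Tmem120a knockdown and 71.3% in the double knockdown. Sgcd, delta-sarcoglycan of the muscle membrane, is a gene of 1093 kb of which 4.37% lay in returned regions, and its share in LADs was 73.9% in preadipocytes, 57.6% in adipocytes, 71.9% after Tmem120a knockdown and 71.0% in the double knockdown. Channels and receptors were met beside the same 1.52% of all genes, in 1 of 95 cases for potassium channels (Kcnk13), 2 of 51 for glutamate and GABA receptors (Gabbr2, Grik3) and 1 of 72 for cadherins and protocadherins (Cdh13). Kcnk13 was at 23.8% in preadipocytes, 0% in adipocytes, 44.2% after Tmem120a knockdown and 72.5% in the double knockdown. Gabbr2, a GABA-B receptor subunit, was at 10.8%, 0%, 29.4% and 51.1%. Grik3, a kainate receptor subunit, was at 77.5%, 51.0%, 13.9% and 47.8%.

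Of the large families, 8 of 370 solute carriers, 8 of 371 Zfp zinc finger genes, 2 of 90 cytochrome P450s, 1 of 92 keratin genes (Krtap4-13) and 3 of 160 cytokine and cytokine receptor genes met a returned region. These shares, from 1.09 to 2.22%, were near the 1.52% of all protein-coding genes. Slc22a3, an organic cation transporter, was 46.8% in LADs of preadipocytes, 0% both in adipocytes and after Tmem120a knockdown, and 81.9% in the double knockdown. Slc22a2, which met the same returned region, was 51.7% in LADs of preadipocytes and 0% in each of the other lists, since it lay in the part that was not covered. Slco3a1 and Slc25a15 were likewise at 0% in the double knockdown, Slc2a13 was at 80.3% and Slc44a5 at 100%, after 40.7% and 86.0% in adipocytes. Among the Zfp genes, Zfp354b went from 59.6% through 0% and 0% to 100%, Zfp2 from 26.4% to 32.5%, Zfp712 from 75.6% to 31.2% and Zfp119a from 52.5% to 41.2%, each with 0% in adipocytes and the Tmem120a knockdown. Zfp442 was at 55.7% after Tmem120a knockdown and 87.4% in the double knockdown. Zfp385b was at 93.4% in adipocytes and 100% in the double knockdown.

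Of the P450 genes, Cyp2d40 lay wholly in LADs of preadipocytes and of the double knockdown, and outside LADs of the other lists, and Cyp2b13 kept 76.1% in adipocytes. The cytokine genes were Il20ra and Il22ra2, which lie near each other on chromosome 10 and encode a receptor chain for IL-20 and a soluble binding protein for IL-22, and Il1b, interleukin-1 beta. Il22ra2 was at 100%, 0%, 0% and 100% in preadipocytes, adipocytes, the Tmem120a knockdown and the double knockdown, Il20ra at 100%, 0%, 46.2% and 100%, and Il1b at 60.0%, 0%, 0% and 100%. Of 1087 olfactory receptor genes 5 (0.46%) met a returned region, as did none of 320 vomeronasal receptor genes, beside 1.52% of all protein-coding genes. Few of them could: 990 and 299 met a preadipocyte LAD, and only 26 and 1 met any released region. All 5 olfactory genes, in 1 cluster on chromosome 15 (Olfr286, Olfr287, Olfr288) and 1 on chromosome 6 (Olfr211, Olfr212), were outside LADs in adipocytes and the Tmem120a knockdown, and were 94.2 to 100% in LADs of the double knockdown.

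Some gene clusters were covered as blocks. They and the genes of the next paragraph were picked after their values were seen, and their counts are descriptions. The trace amine-associated receptors Taar7a, Taar7b, Taar7d, Taar7e and Taar7f, on chromosome 10 between 23712211 and 23770392, were each at 100% in preadipocytes, 0% in adipocytes, 0% after Tmem120a knockdown and 100% in the double knockdown. In the cluster of granzymes and mast cell proteases on chromosome 14, Gzmb and Mcpt4 gave these same values. Gzmf and Gzmc gave 100% after Tmem120a knockdown too, and Mcpt2, a mast cell protease, gave 68.8% there. The Bex and Tceal genes on the X chromosome were not covered as a block. Bex1, Tceal5 and Tceal7 had the values of Gzmb, whereas Bex2 was at 100% after Tmem120a knockdown and 0% in the double knockdown. The fibrinogen genes showed a spread beyond the preadipocyte border: Fga was wholly in the returned region, while Fgb went from 2.87% in preadipocytes to 100% in the double knockdown and Fgg from 1.17% to 57.5%, all at 0% in the other lists. These families hold similar copies, and how reads that fit several copies were counted is not given in the sources used here.

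Several genes for factors of other lineages were in returned regions. Tal1, Gsc, the organizer gene goosecoid, and Irx6 were at 100% in preadipocytes and the double knockdown and at 0% in adipocytes and the Tmem120a knockdown. Foxa1, a pioneer factor of endoderm, reached 59.6% in the double knockdown and Tcfap2c 80.4%, from 0% in adipocytes and the Tmem120a knockdown. Nkx2-2, a factor of pancreatic islets and ventral spinal cord, was at 59.6% after Tmem120a knockdown and 100% in the double knockdown. Foxb1 and Insm1 were in returned regions by position and were at 0% in the double knockdown.

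**Figure D5:**
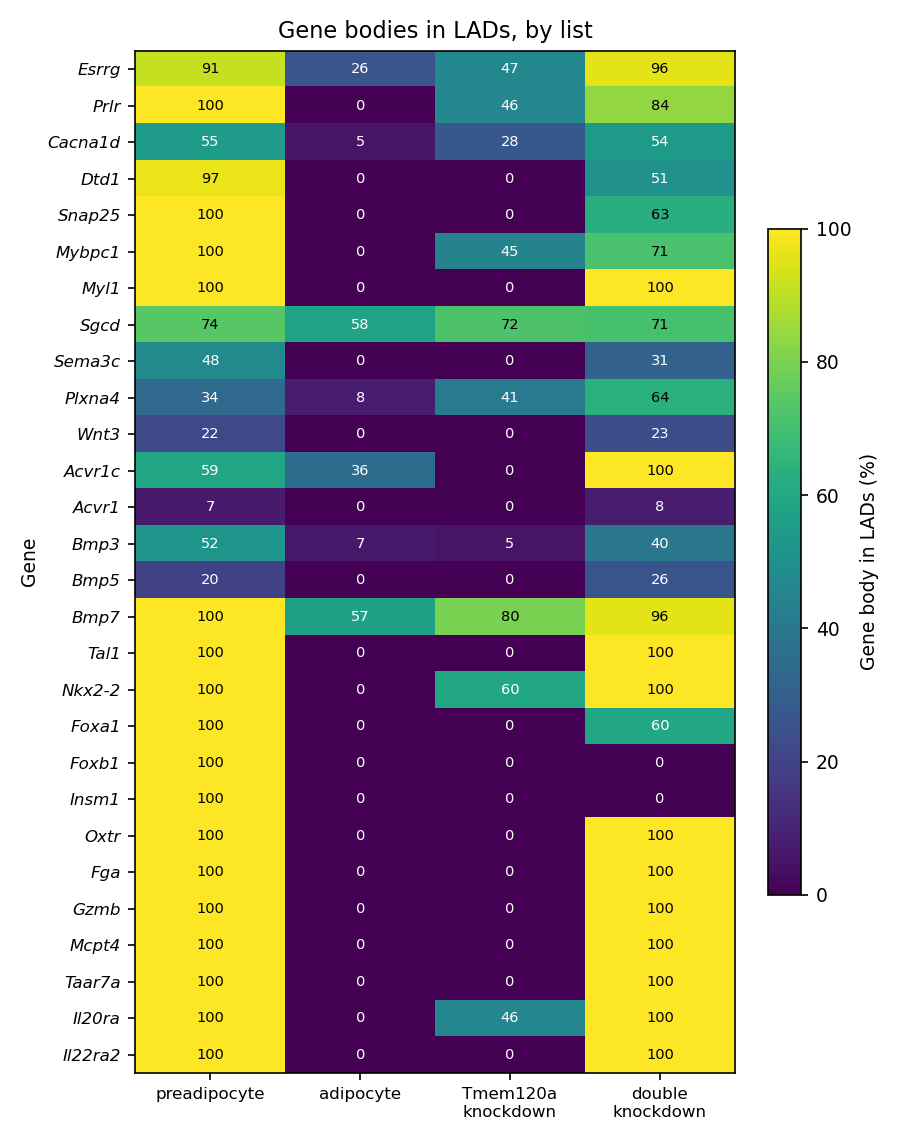
Share of the gene body in LADs (colour and number, %) for a choice of genes that met a returned region, in rows, in each of the LAD lists, in columns. Many were picked after their values were seen. Of all 341 genes that met a returned region, 75 were wholly in LADs of preadipocytes and the double knockdown and outside LADs of the other lists. Genes such as Tal1, Oxtr and Gzmb are at 100% in preadipocytes and the double knockdown and 0% in the other columns, while Foxb1 and Insm1 are at 0% in the double knockdown although their regions met the limit.

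As lists, the preadipocyte, adipocyte, Tmem120a knockdown and double knockdown files held 3914, 2542, 5723 and 6971 LADs over 1193, 1198, 1164 and 1161 Mb. The double knockdown list was thus no longer in sum than the Tmem120a knockdown list. Its median LAD was 60.7 kb, compared with 59.1 kb after Tmem120a knockdown, 83.2 kb in preadipocytes and 103 kb in adipocytes.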

How the data were processed

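DamID libraries of 3T3-L1 cells were made and sequenced by the authors, with 8 libraries in 4 conditions and 2 libraries (LaminB1-Dam and Dam) per condition. Per the methods and the submitters' processing notes, which name BWA, limma and mm9, the authors mapped reads to mm9, took the log2 ratio of LaminB1 over Dam for DpnI fragments and called LADs with DNAcopy. The labels give a transduction of 36 h, at day 6 for the adipocytes, whereas the methods of the study give 3 days. The deposited lists hold positions alone, so that depth and sampling error are unknown. They were assigned to conditions by the abbreviations in their names. The list of regions gained by adipocytes was not used here.

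Overlaps were computed in Python 3.11.15 with numpy 2.4.6, scipy 1.17.1 and matplotlib 3.10.9, and checked on simulated lists. Genes came from an annotation on the same build, and the sequence from its genome. Borders were called near within 10 kb, flanks were 100 kb, and profiles used steps of 5 kb to 200 kb. Intervals are Wilson 95% intervals. No test was made, since no condition has a replicate. Starts were counted from 1, reading the lists as BED, and could be off by 1 base.

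The regions, gene lists and alternatives were chosen with earlier results of these data known. Regions named were the 6 longest, the 3 on each side of each limit and the one with the longest double knockdown LAD. Genes named were the 12 with the most bases in returned regions, those of the lists that were not added later (up to 6 per list) and those of the text of the study. Trim55, Nos1ap, the clusters, the factors of other lineages, the promoters shown and the genes of a run were added after their values were seen. Carboxylesterases, RGS proteins and voltage-gated calcium channel subunits were also grouped then, and not all of their genes are described. Alternatives were other coverage limits, minimum lengths of regions and LADs, closed gaps, autosomes alone, other border distances and other rules for genes.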

Additional observations from a re-analysis of the deposited data

How the results depend on the processing

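Of 46 alternatives, 28 moved a value by less than its interval or 1.5 times and 18 moved it further. The number of returned regions, 457, was 114 when 0% and 100% were asked for and 275 with regions of at least 30 kb. With limits of 30% and 80% it was 475 and 374, of which 361 and 281 were among the 457. With knockdown LADs of at least 100 kb it was 331, with 215 shared, and with gaps under 50 kb closed it was again 457, with 403 shared. The share touching a common LAD was 48.7% for regions of at least 30 kb and 74.3% for LADs of at least 100 kb. The share joined to an adipocyte LAD was 60.2% at the 80% limit, 63.2% at 0% and 100%, 39.6% for regions of at least 30 kb, 78.9% for LADs of at least 100 kb and 62.8% with gaps closed. The share of outer borders near a double knockdown border was 32.1%, 27.5% and 29.2% for these last 3 settings, 22.9% within 5 kb and 70.3% within 25 kb. Genes numbered 76 at 0% and 100%, 226 for LADs of at least 100 kb, 185 by start and 163 with at least 50% of the body. The cause of these moves was not tested. The GC content stayed between 42.3 and 43.1% in all alternatives run. No paired analysis was possible because each condition has 1 list. Positions without scores do not show how far a region lay from the calling threshold.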
